A study of Homo sapiens with 20 samples.

Results

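AQP1, AQP3, SLC14A1, CA1, CA2 and CA3 were chosen by name as the water channel, urea transporter and cytosolic carbonic anhydrase genes of the red cell lineage, and AQP1 was picked for its large increase by day 8. They are 6 of the 46425 genes in the tables and are covered by 28 of 170322 RefSeq transcripts, which were summed by gene in each library. All 6 passed the filter on low counts and were among the 16784 genes tested. Because AQP1 was picked on day 8 against day 0, that contrast is given as a description for all 6 genes and was not tested. The cells were HUDEP-2, an erythroid progenitor line made immortal from cells of human cord blood, labelled wild type and kept proliferating with a doxycycline-inducible transgene. Day 0 cells were in expansion medium with erythropoietin, SCF, dexamethasone and doxycycline, and were taken as proerythroblasts (Pro-E) in the study. Cells of days 1 to 8 and 12 were in IMDM with holo-transferrin, human AB serum, heparin, insulin, erythropoietin, SCF and doxycycline, with SCF left out from day 6 and doxycycline from day 8. The study took days 4 to 6 as early to late basophilic (EB/LB), day 8 as polychromatic (Poly) and day 12 as orthochromatic cells and reticulocytes. Poly(A)-selected stranded RNA-seq gave 2 libraries on each of the 10 days, which the study calls biological replicates for days 0 and 8. The labels do not say whether the libraries of a day came from separate cultures, and p-values measure only the spread between these libraries.

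The red cell membrane lets water, urea and bicarbonate pass quickly, and each passage has its own protein. AQP1 is the main water channel of red cells and carries the Colton blood group, whereas AQP3 is an aquaglyceroporin that passes glycerol as well as water and carries the GIL blood group. SLC14A1 is the urea transporter UT-B and carries the Kidd blood group. Carbonic anhydrases turn carbon dioxide and water into bicarbonate and a proton, and the band 3 anion exchanger, the product of SLC4A1, then trades bicarbonate for chloride. CA1 encodes the most abundant red cell protein after haemoglobin, CA2 the fastest of the 3 enzymes, and CA3 a slow isozyme best known from skeletal muscle.

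Total counts per library were between 52131713 and 70358198. Globin genes took 0.839% of the counts on day 0, 3.88% on day 6, 9.17% on day 8 and 31.0% on day 12, as means of 2 libraries. The libraries of day 7 and day 8 from the tables of separate days held 18.5% and 17.5% ribosomal RNA, against 1.03% to 4.08% in the other 18 libraries. Of both libraries of a day, 1 was deposited in a table that spans all days. The other was in a table of days 0 to 6, of days 7 and 8, or of day 12. These are called the tables of separate days, and their library always comes first below. The first libraries thus change table between days 6 and 7 and between days 8 and 12. All 11 erythroid markers were detected, with a summed level between 31537 TPM and 626465 TPM. TPM is a level per transcript length, scaled to the same total in every library. All 4 stromal and endothelial markers stayed under 1 TPM in every library and the 6 leukocyte markers summed to at most 2.54 TPM. The 3 mast cell and basophil markers summed to between 513.6 and 1393.7 TPM on days 0 and 1 and to at most 3.17 TPM from day 7, and the 3 megakaryocyte markers went from between 7.43 and 69.8 TPM to at most 1.03 TPM. On days 0 and 1 nearly all of each sum came from TPSAB1 or ITGA2B. Means on these days were 768.1 and 950.0 TPM for TPSAB1, 5.83 and 0.894 for MS4A2, and 3.43 and 2.74 for CPA3. ITGA2B had means of 39.8 and 38.6 TPM, GP9 at most 0.315 TPM in any library, and PF4 no count in any library. Whether such cells were present was not tested, nor was their part in the results. In bulk RNA, fewer cells of a type and less RNA per cell cannot be told apart.

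The sequences upstream of AQP1 and AQP3 are shown because these were the members whose level was above both day 0 libraries in every library of days 1 to 8. AQP1 lies on the plus strand of chromosome 7 (hg38, chr7:30911853-30925516) with 2 transcripts and 4 exons. AQP3 lies on the minus strand of chromosome 9 (chr9:33441154-33447596) with 3 transcripts and 6 exons. Both stretches come from RefSeq promoters on hg38, end at the base before the first annotated exon, and are written 5′ to 3′ on the strand of the gene, with matches of CCNCNCCC in capitals. The AQP1 stretch is chr7:30911603-30911852 and the AQP3 stretch is chr9:33447597-33447843.
AQP1: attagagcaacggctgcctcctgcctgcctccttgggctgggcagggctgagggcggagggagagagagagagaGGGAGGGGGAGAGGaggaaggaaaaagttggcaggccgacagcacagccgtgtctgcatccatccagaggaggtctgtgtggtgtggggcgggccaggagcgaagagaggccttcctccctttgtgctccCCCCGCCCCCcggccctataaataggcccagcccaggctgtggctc
AQP3: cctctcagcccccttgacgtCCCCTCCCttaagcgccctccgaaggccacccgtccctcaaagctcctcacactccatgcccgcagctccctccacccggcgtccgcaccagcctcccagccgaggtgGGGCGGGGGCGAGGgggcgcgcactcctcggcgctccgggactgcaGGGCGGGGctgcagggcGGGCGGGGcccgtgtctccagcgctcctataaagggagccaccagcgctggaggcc
CCNCNCCC is the form of the CACCC element, which the erythroid factor KLF1 is known to bind, and was searched on both strands. It matched 4 times upstream of AQP1 and 5 times upstream of AQP3, with some matches overlapping each other, and it is common: 53.3% of 34788 promoter windows of 250 bases held it. Both stretches also held TATAAA, which starts at position -30 in AQP1 and at position -29 in AQP3 counted back from the end of each printed stretch and which 10.8% of the windows held on either strand. Neither AGATAA (in 9.21% of windows) nor TGATAA (6.68%), the forms that GATA1 is known for, nor the E-box CAGNTG (42.5%) matched in either window. GC content was 65.2% for AQP1 and 73.7% for AQP3.

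AQP1 had the widest range of the 6 genes, from near silence on day 0 to a plateau on days 7 and 8. Its level was 1.49 and 1.69 TPM on day 0, 19.6 and 27.7 on day 1, 63.2 and 53.2 on day 2 and 97.0 and 72.9 on day 3. It was 121.6 and 58.2 TPM on day 4, 145.1 and 83.3 on day 5 and 138.0 and 76.3 on day 6. On days 7, 8 and 12 it was 233.5 and 264.0 TPM, 229.0 and 262.4 TPM, and 14.6 and 15.4 TPM. Days 0, 1, 2 and 12 were each apart from every day beside them in the order of levels, days 3 to 6 overlapped one another, with 1 library of day 4 within the range of day 2, and days 7 and 8 overlapped and stood above the rest. This order is that of TPM: on normalized CPM (counts per library total after TMM scaling), day 12 was at 58.0 and 79.8 and overlapped with days 2 and 4. Mean TPM was 14.9-fold higher on day 1, the first day in differentiation medium, than on day 0. Day 8 was 154-fold above day 0 between the first libraries and 155-fold between the second. On the scale of TMM-normalized counts the same difference was 7.83 on log2, with 7.92 and 7.74 in the single pairs. AQP1 went from rank 11415 of all genes by mean TPM on day 0 to rank 367 on day 8. Its transcript NM_198098 carried between 79.3% and 100% of the gene's TPM, and NM_001329872 the rest. A readthrough gene of GENCODE shares the AQP1 locus, so reads of both could not be separated here.

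AQP3 had its highest TPM on the first day of differentiation, not at the end. Its level was 22.6 and 24.3 TPM on day 0, 168.0 and 87.9 on day 1, 86.1 and 53.8 on day 2, and 54.8 and 32.1 on day 3. From day 4 to day 6 it was between 70.1 and 78.6 TPM in the first libraries and between 32.9 and 38.2 TPM in the second. On days 7, 8 and 12 it was 76.2 and 67.7 TPM, 67.9 and 69.4 TPM, and 18.1 and 16.3 TPM. On TPM, day 1 stood above all other days without overlap, days 2 to 8 formed a chain of overlapping ranges, and days 0 and 12 were lowest. On normalized CPM, day 1 was at 136.5 and 65.9 and overlapped with days 2, 6, 7 and 8. Day 12, at 48.2 and 57.1, lay within the ranges of days 2, 5 and 6 and above day 3. Day 0 alone was thus lowest on this scale. Mean TPM was 5.46-fold higher on day 1 than on day 0 and 2.93-fold higher on day 8 than on day 0. NM_004925 carried between 90.8% and 99.8% of the AQP3 TPM. The libraries of 1 day differed by 1.60-fold to 2.17-fold on days 1 to 6, and by at most 1.13-fold on days 0, 7, 8 and 12.

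Which water channel mRNA was in excess differed between days, as the plot of ratios shows. The ratio of AQP1 to AQP3 in TPM was 0.0657 and 0.0697 on day 0, 0.117 and 0.315 on day 1, and 0.734 and 0.988 on day 2. It was between 1.73 and 2.30 in the 8 libraries of days 3 to 6, between 3.06 and 3.90 in the 4 libraries of days 7 and 8, and 0.805 and 0.944 on day 12. AQP3 was thus the higher of both in all 6 libraries of days 0 to 2 and in both of day 12, and AQP1 in the 12 between. A ratio within a library does not depend on how libraries are scaled.

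SLC14A1, the urea transporter, followed a course opposite in its start to that of the aquaporins. Its level was 11.7 and 15.1 TPM on day 0, 3.48 and 6.93 on day 1, and on days 2 to 4 between 3.28 and 5.30 in all 6 libraries. It was 5.34 and 5.69 TPM on day 5, 7.24 and 6.27 on day 6, and 15.9 and 9.96 on day 7. On day 8 it was 25.1 and 13.4 TPM and on day 12 25.8 and 17.5 TPM. Day 1 was below day 0 in both libraries, at 0.389 of its mean, days 1 to 5 overlapped in a chain, and the days from 7 on were above days 1 to 6 without overlap. Day 12 had the highest mean, 21.7 ± 5.87 TPM (SD, n = 2), but its libraries overlapped with those of day 8. On normalized CPM they did not overlap, with 147.7 and 132.7 on day 12 and 64.6 and 29.2 on day 8. SLC14A1 lies on the plus strand of chromosome 18 (hg38, chr18:45724127-45752520), with 10 exons and 13 of the 28 transcripts. NM_015865 carried between 29.4% and 81.6% of its TPM with a median of 65.5%, so the sum was shared out more than in the other members. An annotated antisense lncRNA overlaps the locus, and whether the counting used the strand is not given in the sources used here.

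The carbonic anhydrase mRNAs made up between 97.2% and 99.6% of the summed mean TPM of the 6 genes on each day. CA1 took between 79.3% and 92.4% of the TPM of the 3 enzymes. CA1 was at 6402 and 9884 TPM on day 0, 6708 and 9384 on day 1, 9582 and 11005 on day 2 and 6160 and 8784 on day 3. On days 4 to 6 its 6 libraries lay between 7149 and 9841 TPM, followed by 12218 and 12649 TPM on day 7, 13569 and 14441 on day 8, and 1871 and 1074 on day 12. Days 0 to 6 overlapped in a chain, day 8 stood above day 7 and day 7 above all earlier days, and day 12 lay below all on TPM, whereas on normalized CPM its libraries (4972.7 and 3770.4) overlapped with those of day 0. CA1 ranked between 2 and 8 among all genes by mean TPM on days 0 to 8 and 33 on day 12. Its locus on the minus strand of chromosome 8 (hg38, chr8:85327608-85378113) has 7 transcripts and 8 exons, and NM_001128831 carried between 82.4% and 93.8% of the TPM.

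CA2 was an order of magnitude below CA1 and had a narrower range. It was at 994.2 and 1204 TPM on day 0, 1342 and 1194 on day 1, and 1492 and 1232 on day 2. In the 8 libraries of days 3 to 6 it was between 619.0 and 1010.5 TPM, on day 7 at 1098 and 1059 TPM, on day 8 at 1258 and 1197 TPM, and on day 12 at 452.7 and 280.5 TPM. The 3 first days and days 7 and 8 overlapped in a chain, and day 12 lay below all others on TPM. On normalized CPM day 12 was at 1021.5 and 834.6, above all 8 libraries of days 3 to 6, which were between 435.7 and 690.9. CA2 lies on the plus strand (chr8:85463902-85481493, 2 transcripts, 7 exons), and NM_000067 carried between 83.3% and 99.2% of its TPM. The ratio of CA1 to CA2 was between 5.00 and 12.3 in the 18 libraries of days 0 to 8, and 4.13 and 3.83 on day 12, below all of them. CA2 accordingly took 19.5% and 20.7% of the TPM of the 3 enzymes on day 12, against 7.53% to 16.7% before. No test was made of this ratio.

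CA3 was low and is the member whose values depend most on which library is read. In the first libraries it was at 6.17, 2.32, 3.85, 1.79, 2.62, 2.08 and 2.88 TPM on days 0 to 6. In the second libraries it was at 41.1, 20, 18.3, 13.6, 12.9, 13.4 and 13.9 TPM on the same days. The second library was between 4.77-fold and 8.61-fold above the first on each of these 7 days. The first libraries of these days come from 1 table, and those of later days from others. The part of the table in this difference was not tested. On day 7 the values were 17.4 and 20.6 TPM, on day 8 27.6 and 24.1 TPM, and on day 12 0.439 and 0.553 TPM, within 1.26-fold of each other. Counts behind these values were between 100 and 297 in the first libraries and between 598 and 2119 in the second on days 0 to 6, and 34 and 52 on day 12. From day 0 to day 8 the first libraries differed by 2.84 and the second by -0.27 on log2 of normalized counts, so the sign of this difference was set by the pair read. From day 8 to day 12 both pairs gave a lower level, at 0.0159 and 0.0229 of day 8 in TPM. CA3 has 1 transcript and 7 exons on the plus strand between CA1 and CA2 (chr8:85438859-85449040). In GENCODE the CA3 gene overlaps CA1 on the other strand, and the antisense gene CA3-AS1 overlaps both CA3 and CA2. CA3-AS1 had between 29 and 150 counts per library.

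Day 6 was compared with day 1 to ask what happened while SCF was in the differentiation medium. AQP1 was the member that rose, by 2.33 on log2 (SE 0.40, adjusted p = 0.0042, edgeR quasi-likelihood test with Benjamini-Hochberg adjustment over 16784 genes). This is 1 of 6 members, against 6.84% of all genes called, 3.4% higher and 3.44% lower. Days 1 and 6 lie within the rise to day 8 for which AQP1 was picked. Its call is therefore not independent of that choice, and setting it against the share of all genes decides nothing. AQP1 was higher in both libraries of day 6 than in both of day 1. The call was lost without the first library of day 1 (adjusted p = 0.0745), without the first library of day 6 (0.0576) and with only the 4 libraries of these days in the fit (0.0701). The others were not called. AQP3 differed by -1.02 (95% interval -2.11 to 0.07), CA2 by -0.51 (-1.07 to 0.04), CA1 by 0.28 (-0.20 to 0.76), SLC14A1 by 0.49 (-0.33 to 1.31) and CA3 by -0.31 (-3.00 to 2.37). The interval of CA3 is wide on both sides of 0, so its direction could not be told at this spread.

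Day 7 was compared with day 6, the step that follows the withdrawal of SCF. No member passed the adjusted threshold, against 2.57% of all genes, 0.882% higher and 1.69% lower. An unadjusted p under 0.05 with a higher level was found for 4 of the 6, against 8.95% of all genes. AQP1 is 1 of these 4, and days 6 and 7 also lie within the rise for which it was picked. AQP1 differed by 1.53 (SE 0.38, adjusted p = 0.0532), CA1 by 0.81 (SE 0.22, adjusted p = 0.0686), SLC14A1 by 1.31 (SE 0.38, adjusted p = 0.0797) and CA2 by 0.73 (SE 0.26, adjusted p = 0.142), all from edgeR's quasi-likelihood test. The 2 libraries of day 7 were above both of day 6 for these 4 genes and for CA3, and not for AQP3. AQP1, CA1 and SLC14A1 were called by DESeq2 (adjusted p = 0.00235, 0.00813 and 0.0135), these with CA2 by edgeR's exact test on the 4 libraries, and AQP1, CA1 and SLC14A1 by edgeR with the table set as a block (adjusted p = 0.00913, 0.0186 and 0.0368). With the library of 18.5% ribosomal RNA left out, AQP1 differed by 1.57 (adjusted p = 0.225) and SLC14A1 by 0.87 (adjusted p = 0.562), and no member was called. In the first libraries this step also crosses from one table to another. Within the table of all days AQP1 went from 76.3 to 264.0 TPM and CA1 from 9636 to 12649 TPM. There SLC14A1 went from 6.27 to 9.96 TPM and CA2 from 985.8 to 1059.4 TPM. For CA2 this was 1.07-fold, against 1.59-fold in the first libraries. The part of the table change was not tested.

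Day 12 was compared with day 6, and here the members parted. SLC14A1 rose by 3.55 on log2 (SE 0.41, adjusted p = 4.9e-06) and CA2 by 0.65 (SE 0.26, adjusted p = 0.042), while AQP1 fell by 0.99 (SE 0.38, adjusted p = 0.0352) and CA1 fell by 0.79 (SE 0.22, adjusted p = 0.0069) in edgeR's quasi-likelihood test on TMM-scaled counts. These are 4 of 6 members, against 63.8% of all genes, 27.6% higher and 36.2% lower, so a call was the usual outcome in this contrast. The first libraries change table between these days and the second do not, and the part of this was not tested. On log2 normalized CPM, AQP1 differed by -1.67 between the first libraries and by -0.17 between the second. In the same order CA1 differed by -0.61 and -1.01, SLC14A1 by 3.46 and 3.65, and CA2 by 0.96 and 0.33. In the edgeR test AQP3 differed by 0.08 (95% interval -1.0 to 1.17) and CA3 by -2.11 (-5.04 to 0.81). CA3 was called lower by edgeR's exact test (adjusted p = 0.0115), with only the 4 libraries of these days in the fit (0.0304) and by limma on log2(TPM + 0.1) (0.0325), and its adjusted p was between 0.056 and 0.725 in the other alternatives. On TPM, which counts globin mRNA in the total, all differences were lower: 1.64 for SLC14A1, -1.21 for CA2, -2.77 for AQP1, -2.67 for CA1, -1.66 for AQP3 and -3.45 for CA3. So the rise of CA2 turned into a fall on TPM (limma adjusted p = 0.002), and AQP3 changed sign as well, also on counts scaled by the library total without TMM (-0.49 for CA2 and -0.94 for AQP3).

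The median difference of all genes tested was -0.24 with TMM and -1.57 on log2(TPM + 0.1), the TPM scale used here. With a pseudocount of 1 it was -0.939, so distances from the TPM median depend on the pseudocount. Over all genes TMM gave 4629 higher and 6081 lower calls and TPM 1540 and 10780. Relative to these medians the members kept their order. Another scaling of the libraries shifts all genes by nearly the same amount, so this order was largely fixed in advance. SLC14A1 stood 3.79 above the median with TMM and 3.21 above it on TPM, and CA2 0.89 and 0.36 above it. CA1 stood at -0.55 and -1.11, AQP1 at -0.75 and -1.20, and CA3 at -1.87 and -1.88 from it, and AQP3 at 0.32 and -0.10. SLC14A1 was called higher in every alternative fit run, and CA1 lower in all but 1. CA2 was not called when any 1 of the 4 libraries was left out (adjusted p = 0.0557 to 0.236) or without a filter (0.0597). AQP1 was not called without the first library of day 6 (adjusted p = 0.42) or of day 12 (0.168) or with upper-quartile normalization (0.0955), and CA1 not without the second library of day 12 (0.0712).

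**Figure D1:**
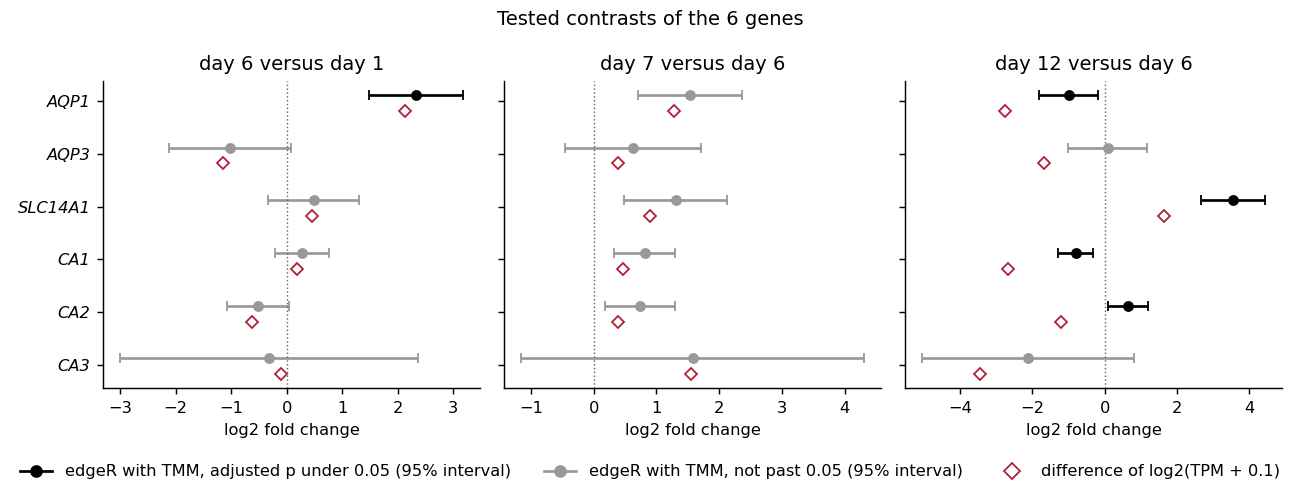
Log2 fold change of each of the 6 genes in the 3 tested contrasts, with filled circles and 95% intervals from edgeR on TMM-scaled counts, black where the adjusted p was under 0.05 and grey otherwise, and open diamonds for the difference of log2(TPM + 0.1). AQP1 passes in day 6 versus day 1, none passes in day 7 versus day 6, and in day 12 versus day 6 the diamonds lie to the left of all circles, with CA2 at 0.65 by TMM and -1.21 on TPM.

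Other water channels were low or absent. Of 12 further aquaporin genes 7 had no count in any library, which allows at most 3 counts per library, and 3 passed 1 TPM in some library. AQP2, a collecting duct channel, reached a mean of 7.55 TPM on day 1, with 12.1 TPM in 1 library, and was at 0 on days 7 and 8. SLC14A1 had a mean of 5.2 TPM on day 1, with 3.48 and 6.93 TPM in its libraries. From day 1 to day 6 it differed by -5.70 on log2 (adjusted p = 0.0546, edgeR). AQP10 and AQP11 reached at most 2.56 TPM. None of the 3 that could be tested was called by edgeR's quasi-likelihood test in any of the 3 contrasts, and 1 of them had an unadjusted p under 0.05 in each, against 20.6%, 19.7% and 67% of all genes. From day 6 to day 12, AQP11 was called lower by DESeq2 (-2.26, adjusted p = 0.0341) and by limma on log2(TPM + 0.1) (-2.58, adjusted p = 0.00219), and AQP10 by limma alone (-1.77, adjusted p = 0.0291). Of 12 other carbonic anhydrases 5 had no count, and CA8, a related protein without enzyme activity, was the one above 10 TPM. CA8 was at 86.6 TPM on day 0, 173.5 on day 1, 161.3 on day 6, 122.0 on day 8 and 22.7 on day 12, as means of 2 libraries. It fell by 1.15 on log2 from day 6 to day 12 (adjusted p = 0.00051, edgeR), and CA13, with few counts, fell as well, while CA11, which had fallen from day 1 to day 6, rose with TMM by 1.91 but not on TPM (0.15).

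Genes of the urea cycle went both ways beside SLC14A1. ARG1, which splits arginine into urea and ornithine, was at 2.24 ± 0.146 TPM on day 6, 15.9 ± 8.74 on day 8 and 360.4 ± 8.52 on day 12 (SD, n = 2). It rose from day 1 to day 6 by 3.94, from day 6 to day 7 by 2.48 and from day 6 to day 12 by 9.18 (adjusted p = 0.0025, 0.0103 and 1.11e-08, edgeR). ARG2, the mitochondrial arginase, was at 2.74 TPM on day 6 and 232.8 on day 12 and rose by 8.24 (adjusted p = 1.27e-06, edgeR). ASL, an earlier enzyme of the cycle, fell by 2.95, and SLC25A15, the ornithine carrier, fell as well over the same days. Of 8 members of this list tested, 2 rose from day 1 to day 6 (ARG1 and ASS1), 1 from day 6 to day 7 (ARG1), and from day 6 to day 12 2 rose and 3 fell, the third being CPS1. The day 12 counts were the same on TPM. Of all genes tested, 3.4% were called higher and 3.44% lower from day 1 to day 6, and 0.882% and 1.69% from day 6 to day 7. From day 6 to day 12 these shares were 27.6% and 36.2% with TMM. On TPM 1540 of 16784 genes were then higher and 10780 lower.

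Anion and gas transport genes were read next to the carbonic anhydrases. SLC4A1, the band 3 exchanger, was at 36.2 TPM on day 1, 811.0 on day 6, 1996.6 on day 7 and 1329.5 on day 12, as means. It rose by 4.63 from day 1 to day 6 and by 1.63 from day 6 to day 7 (adjusted p = 0.00011 and 0.0463, edgeR). From day 6 to day 12 it rose by 2.53 with TMM (adjusted p = 9.37e-05), and on TPM the difference was 0.74 and was not called (limma adjusted p = 0.0926). Of the 12 genes of the bicarbonate and proton list tested, 1 rose and 1 fell (SLC4A7) in each of the first 2 contrasts, and 3 rose and 4 fell at day 12 with TMM against 0 and 5 on TPM. Among all genes, 3.4% rose and 3.44% fell in the first contrast and 0.882% and 1.69% in the second. At day 12 27.6% rose and 36.2% fell with TMM, and on TPM 1540 of 16784 rose and 10780 fell. The 3 that rose were SLC4A1, SLC16A1, a lactate carrier, and its partner BSG, and those that fell were SLC4A2, SLC4A7, SLC26A6 and SLC16A3.

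RHAG, the ammonia and gas channel of the Rh complex, was at 560.2 TPM on day 0, 928.0 on day 6, 1309.0 on day 8 and 422.6 on day 12. It was not called in the first 2 contrasts, and at day 12 it rose by 0.63 with TMM (adjusted p = 0.038, edgeR) but was lower by TPM, at -1.17. RHD and RHCE, which are near-identical copies whose reads may have been divided between them, rose in all 3 contrasts with TMM, by 2.49 and 1.72, by 1.88 and 1.74 and by 2.84 and 2.27. At day 12 on TPM, RHD was the one of the Rh genes called higher. Of 11 genes of cell volume and cation transport, 2 rose from day 1 to day 6 (SLC12A4 and ATP2B4) and none was called from day 6 to day 7. At day 12, 2 rose (KCNN4 and LRRC8A) and 7 fell with TMM, against 1 and 9 on TPM. The shares over all genes were 3.4% higher and 3.44% lower in the first contrast and 0.882% and 1.69% in the second. At day 12 they were 27.6% and 36.2% with TMM, and on TPM 1540 of 16784 genes were higher and 10780 lower. KCNN4, the Gardos potassium channel, was at 11.6 TPM on day 0 and 89.5 on day 1, an early difference in the same direction as that of AQP3, and its day 12 difference of 1.81 with TMM was -0.02 on TPM. Of the 4 erythroid transcription factors, none was called from day 1 to day 6, KLF1 rose from day 6 to day 7 by 0.74 (adjusted p = 0.0433, edgeR), and all 4 rose at day 12 with TMM, where on TPM none was higher and GATA1 was lower, at -1.23. The median day 12 difference with TMM was -0.2 for the urea list, 0.65 for bicarbonate and proton transport, 2.27 for the Rh genes, -1.32 for cell volume and 1.86 for the transcription factors, beside -0.24 for all genes, and on TPM these medians were -0.65, -0.32, 0.34, -3.02 and -0.07 beside -1.57.

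The genes whose log2 normalized CPM ran most like that of each member were found by Pearson correlation across the 20 libraries. They were sought among 8534 genes with a mean of at least 10 normalized CPM. The libraries share days and depth, so these values are a description. Correlation does not weigh the size of a change, and the courses can differ on TPM. FAM83D had a mean of 28.2 TPM on day 0 and 47.5 on day 8, against 1.59 and 245.7 for AQP1. SNX15 had 24.2 TPM on day 0 and 20.2 on day 12, and SESN3 13.7 and 34.1, against 13.4 and 21.7 for SLC14A1. AQP1 was nearest to FAM83D (r = 0.972) and POLR3C (0.958). AQP3 was nearest to FERMT3 (0.867), ID1 (0.851) and SEL1L3 (0.838), and SLC14A1 to SESN3 (0.962), SNX15 (0.959) and CTSF (0.957). CA1 was nearest to TOB2 (0.918), WEE1 (0.912) and WDR62 (0.896), CA2 to PLEKHA4 (0.851), C12orf57 (0.794) and JARID2 (0.781), and CA3 to MAPRE2 (0.867), SOCS6 (0.863) and ZNF557 (0.861). Among the members themselves, CA1 and CA3 were most alike (r = 0.775, n = 20), then AQP1 and AQP3 (0.607), and the lowest values were those of AQP3 with CA3 (-0.191) and AQP1 with CA3 (0.067).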

How the data were processed

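HUDEP-2 RNA-seq libraries (20, from 10 days) were analysed from 4 deposited tables of RefSeq transcripts. The submitters' processing notes name Trimmomatic 0.38 (trimming), HISAT2 2.1.0 (alignment to hg38) and StringTie 2.1.3b (transcript abundance). The authors deposited read counts without normalization and TPM scaled for transcript length and library. The values came from 40 columns. Another 23 were left out, namely the FPKM and a further day 0 set beside day 12. Column names give the day without a replicate number.

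Transcript values were summed by gene symbol. Counts were tested with edgeR 4.0.16 (filterByExpr, TMM, glmQLFit, glmQLFTest, 1 coefficient per day, all 20 libraries) and adjusted by Benjamini-Hochberg over 16784 genes, with a threshold of 0.05; the quasi-likelihood test stood in for the exact test named in the study's methods. Intervals are 95%. The test was tried on simulated data first. DESeq2 1.42.0 and limma 3.58.1 on log2(TPM + 1) and log2(TPM + 0.1) were alternatives. Descriptive log2 differences used a prior count of 2. A count of 0 allows 3 counts, or 0.0426 to 0.0575 CPM, for counting error only. Both libraries of a day differed beyond sampling noise in 65.3% to 78.0% of genes.

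The members, gene lists and motifs were chosen by function with earlier results of these data known. All members were named, with the 3 genes most correlated with each (1 of them is not reported here) and up to 4 genes of highest mean TPM per list; further listed genes were named after their values were seen where few were called. The fit without both libraries rich in ribosomal RNA and the values without TMM were added after seeing the data.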

Additional observations from a re-analysis of the deposited data

How the results depend on the processing

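Of 276 tested alternative values of single members, 236 kept their direction and their side of the threshold, 12 lost the call, 20 gained one and 8 changed sign. Of 18 values without TMM and without a test, 16 kept their direction and 2 changed sign. No paired analysis was possible because column names give the day without a replicate number, and the table set was fitted as a block in its place. In day 6 versus day 1, 1 member was called; 0 were called with only the libraries of the 2 days, 2 with the table set as a block, when AQP3 joined AQP1, and 0 to 1 when a library was left out. In day 7 versus day 6, where 0 were called, 3 were called by DESeq2, 4 by edgeR's exact test, 1 by limma on log2(TPM + 1) or log2(TPM + 0.1), 2 without a filter, 1 with at least 10 counts in every library, 3 with the table set as a block, and 0 to 1 when a library was left out. In day 12 versus day 6, 4 were called, 5 by edgeR's exact test, by limma on log2(TPM + 1) and with only the libraries of the 2 days, 6 by limma on log2(TPM + 0.1), 3 with upper-quartile normalization or without a filter, and 2 to 3 when a library was left out. Here AQP3 and CA2 changed sign with the scale. AQP3 went from 0.08 to -1.61 and -1.66 with limma on TPM (pseudocounts 1 and 0.1) and -0.94 without TMM, and to between -0.42 and 0.79 when a library was left out, with -0.42 and -0.063 without the second library of day 6 or of day 12. CA2 went from 0.65 to -1.21 with limma on TPM under both pseudocounts, and to -0.49 without TMM. CA3 in day 6 versus day 1 went from -0.31 to between -1.71 and 1.83 when a library was left out, and was above 0 without the second library of day 1 (1.83) or the first of day 6 (0.38). The cause was not tested. Across all genes the calls of day 6 versus day 1 went from 1148 to between 132 and 2846, and limma on log2(TPM + 0.1) gave 316 higher and 991 lower against 570 and 578. For day 7 versus day 6 they went from 431 to between 0 (with only the 4 libraries of both days) and 2274, with 97 higher and 1430 lower on that scale against 148 and 283. The ratio of CA1 to CA2 on day 12 was 3.98 from TPM and 4.70 from counts. With 2 libraries a day, changes of CA3 of several fold before day 7 could not be told from the spread.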
